A study of Rattus with 6 samples.

Results

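The matricellular proteins are secreted proteins of the extracellular matrix that act more as signals and adapters than as load-bearing fibres. Fibronectin and fibrillin 1, which do form fibres, are counted with them here. The 9 genes described here encode periostin (Postn), its relative TGFBI (Tgfbi), tenascin C (Tnc), thrombospondins 1 and 2 (Thbs1 and Thbs2), SPARC (Sparc), osteopontin (Spp1), fibronectin (Fn1) and fibrillin 1 (Fbn1). They were taken by gene symbol from the table of read counts, by a rule that reads the symbol alone, and all 9 were found among its 20742 genes. The rat cell line H9C2, derived from embryonic heart, was sequenced in 6 libraries of polyadenylated RNA. A control plasmid had been given to the cells of 3 libraries and an RBM25 overexpression plasmid to those of the other 3. RBM25 is an RNA-binding protein that takes part in the choice of splice sites. Both groups share the cell line and differ, by their labels, in the plasmid alone. How the plasmid was delivered, for how long, and whether a group's libraries came from separate cultures was not given in the sources used here. The p-values below therefore speak only of the spread among these libraries, and that spread may be technical.

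Periostin and TGFBI share a fold of repeated fasciclin domains and bind integrins, the cell-surface receptors that couple cells to the matrix. Tenascin C and the thrombospondins are low in the resting adult heart and are known to appear after injury. SPARC binds collagen, osteopontin binds integrins and the receptor CD44, fibronectin forms the provisional matrix of a wound, and fibrillin 1 builds the microfibrils that hold latent TGF-beta. In the injured heart periostin is known as a mark of activated fibroblasts. Fn1, Tnc, Postn and others of these genes are spliced in several forms, and counts per gene do not show which form was present.

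The libraries held 25543849 to 33130256 counted reads, and the 9 genes together took 0.720% to 0.751% of them. Rbm25 averaged 46.5 ± 2.46 CPM in the control group and 57.4 ± 2.31 CPM in the RBM25 group (CPM are reads of a gene per 1e+06 scaled reads; SD, n = 3 each), and the groups did not overlap. The RBM25-like gene Rbm25l1 had 1, 1 and 3 reads in the controls and 147, 114 and 105 reads with the RBM25 plasmid (fitted log2 fold change 5.97 ± 0.33, SE; edgeR adjusted p = 7.27e-12). Reads of such similar genes can be split between them in counting. RBM25 replicate 3 stood apart from its group, since its counts gave chi-square values of 6.23 and 4.80 (each divided by its degrees of freedom) against replicates 1 and 2, where the other 4 pairs of replicates gave 3.22 to 3.47. Of 17 measured markers of the muscle and cardiac lineage, 12 averaged at least 1 CPM, among them Myod1, Tnnt2 and Cdh15, while the cardiac myosin gene Myh7 had at most 2 reads in a library and Myh6 at most 16. Of 7 measured fibroblast markers, 6 averaged at least 1 CPM (Col1a1, Col1a2, Col3a1, Pdgfrb, Thy1 and S100a4) and Pdgfra had at most 2 reads in a library; Dcn, Lum, Tcf21 and Fap were not analysed here.

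**Figure D1:**
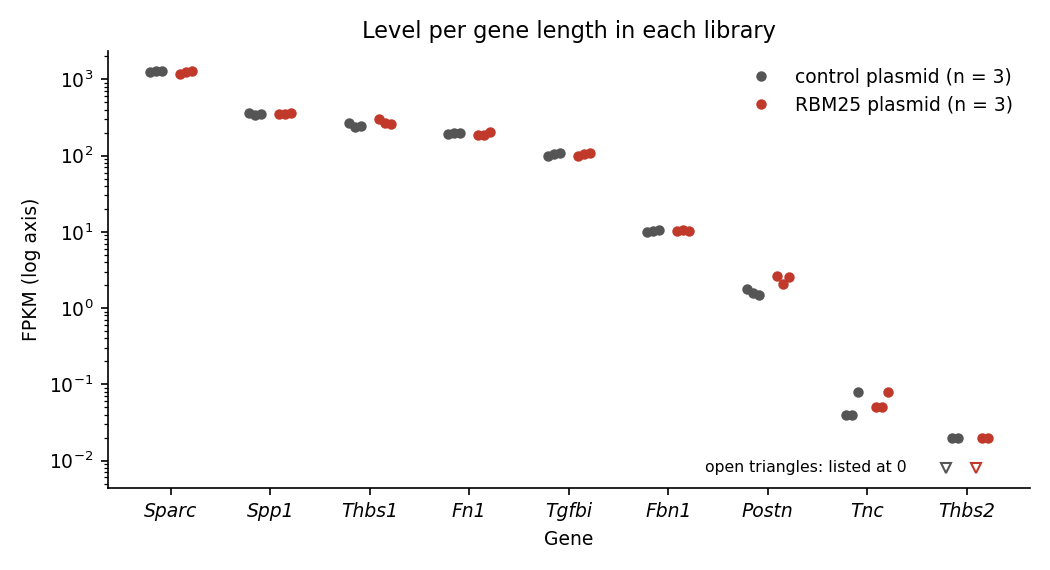
Deposited FPKM of the 9 genes on a log axis, with 1 point for each library, control plasmid in grey and RBM25 plasmid in red (n = 3 each). From Sparc (1191 to 1302 FPKM) down to Thbs2 (0 to 0.02 FPKM), the ranges of neighbouring genes do not overlap, and only the Postn points of the 2 groups lie apart.

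Per unit of gene length the 9 genes covered a very wide range of levels. Sparc was the most abundant, with 1191 to 1302 FPKM (the deposited unit, reads scaled by gene length and library size) over the 6 libraries, which ranked it 78 among 20395 genes. Spp1 followed with 345 to 358 FPKM, Thbs1 with 240 to 298 FPKM, Fn1 with 185 to 202 FPKM and Tgfbi with 98.7 to 108 FPKM. These 5 genes thus lay among the upper part of the genes measured, Tgfbi being the lowest of them at the 96.3rd percentile. Fbn1 was at 10.01 to 10.72 FPKM and Postn at 1.49 to 2.67 FPKM. Tnc (0.04 to 0.08 FPKM) and Thbs2 (0 to 0.02 FPKM) were at the bottom. No neighbours in this order overlapped over the 6 libraries. Mean FPKM of Tgfbi was 51.4 times that of Postn, so the TGFBI transcript was far the more abundant of the pair of fasciclin-domain genes in these cells.

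Periostin was the 1 member called changed. Postn had 169, 167 and 169 reads in control replicates 1, 2 and 3, and 326, 243 and 257 reads in RBM25 replicates 1, 2 and 3. Scaled for library size, its level was 6.63, 5.82 and 5.46 CPM in the controls and 9.88, 7.68 and 9.19 CPM with the RBM25 plasmid. Every RBM25 library lay above every control library, and the closest 2 libraries, RBM25 replicate 2 and control replicate 1, differed by a factor of 1.16. The group means were 5.97 ± 0.600 and 8.92 ± 1.13 CPM (SD, n = 3 each), which is 49.3% more. On the log2 scale the fitted difference was 0.58 ± 0.11 (SE), or 1.50-fold with a 95% interval of 1.28 to 1.75 (edgeR quasi-likelihood test, adjusted p = 0.00922 over 12882 genes). Per length the transcript was a low one, at 2.02 FPKM on average. In a bulk sample, more cells that express a gene and more RNA per cell cannot be told apart.

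Of the 8 members that could be tested, 1 was called higher and 7 were not called, while 0.404% of all tested genes were called in either direction with 0.357% called higher and 0.0466% called lower. The median log2 fold change was 0.012 over the 8 members and -0.0021 over all tested genes. A positive log2 fold change was found for 4 members and for 48.8% of all tested genes. Postn was also the 1 tested member whose groups did not overlap, against 16.2% of all tested genes. Ordered by log2 fold change, it ranked 11 among the 46 genes called higher. Among the 1417 tested genes within 1.5-fold of its level, Postn included, 2 others were called. The summed level of the muscle marker list, 17 of whose 19 genes were measured, also did not overlap between the groups. It was 1211 to 1228 CPM in the controls and 1241 to 1311 CPM with the RBM25 plasmid. This gap was not tested, and the groups were also apart for 16.2% of all tested genes. The largest parts of the sum, Tnnc1 (means 421 and 444 CPM) and Casq2 (329 and 353 CPM), were higher with the RBM25 plasmid. Cdh15 (227 and 223 CPM) and Myog (21.4 and 18.4 CPM) were lower. Of the remaining markers Myh3, Nkx2-5 and Chrna1 had lower means, and all others had higher means with the RBM25 plasmid. The endothelial sum, in which Eng is nearly the whole and Pecam1 and Cdh5 had at most 1 read in a library, was 104 to 109 and 101 to 103 CPM. No gene of either list was called, and the part of these lists in the Postn result was not tested. The sums of 7 measured fibroblast markers (23660 to 25954 and 23973 to 25210 CPM), 5 leukocyte markers (38.7 to 42.2 and 37.8 to 43.1 CPM) and 6 epithelial markers (780 to 838 and 756 to 903 CPM) overlapped between the groups.

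**Figure D2:**
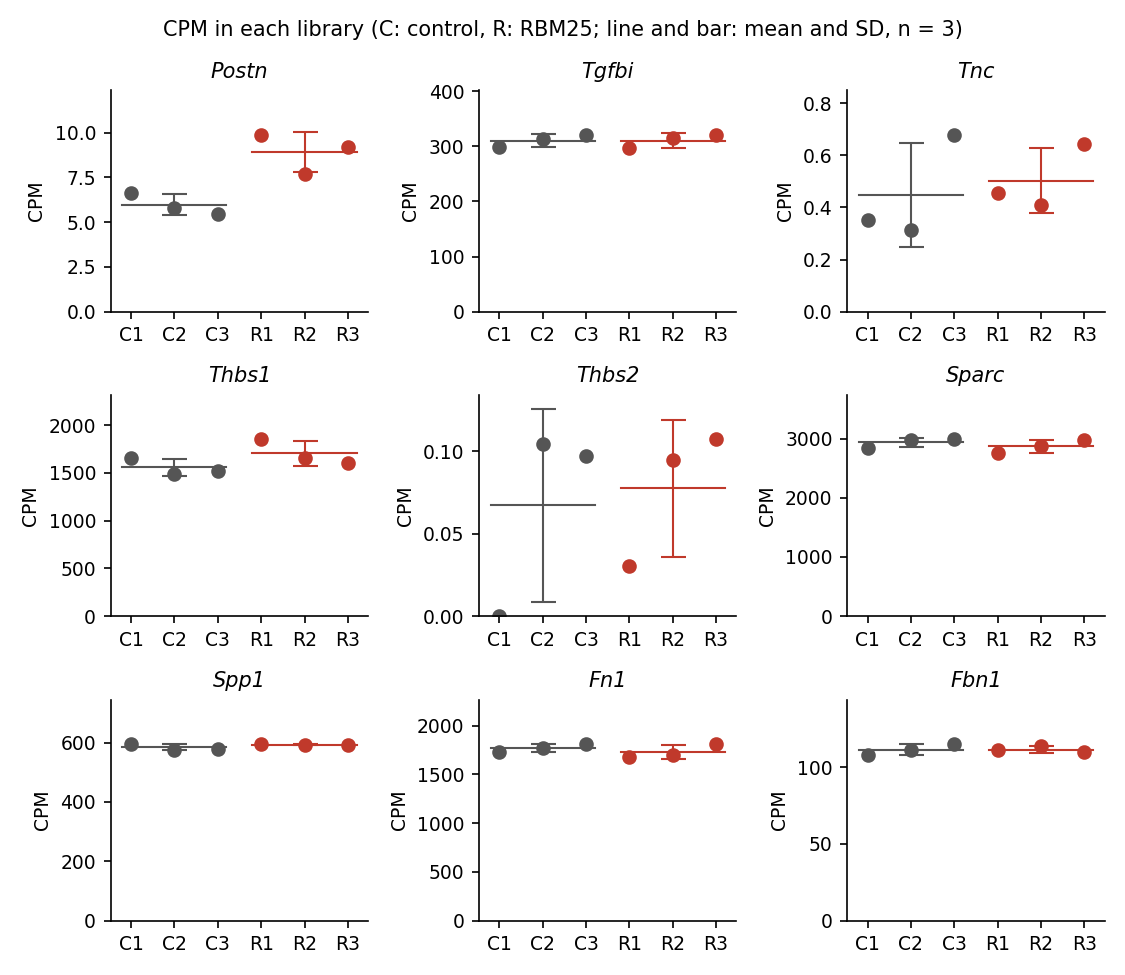
Library-scaled CPM of each gene in control replicates 1 to 3 (C1 to C3, grey) and RBM25 replicates 1 to 3 (R1 to R3, red); lines and bars are mean and SD, and each axis starts at 0. The Postn points of the groups are separate (5.46 to 6.63 against 7.68 to 9.88 CPM), while those of the other 8 genes overlap.

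The call of Postn depended on single control libraries although its size did not. Without control replicate 2 the log2 fold change was 0.57 (edgeR adjusted p = 0.181), and without control replicate 3 it was 0.52 (adjusted p = 0.108). Without each of the other 4 libraries in turn the call was kept, including without RBM25 replicate 3, where the log2 fold change was 0.56 (adjusted p = 0.00133). The ratio of the mean CPM lay between 1.41 and 1.60 over these 6 reductions. On the deposited FPKM values the groups were at 1.62 ± 0.159 and 2.42 ± 0.307 FPKM (SD, n = 3), a ratio of 1.49, and did not overlap, but the limma-trend test on log2(FPKM + 0.1) did not call the gene (log2 difference 0.55 on that scale, adjusted p = 0.363). Read sampling alone would give a coefficient of variation of 7.71% in the controls and 6.03% in the RBM25 group, against an observed 10.1% and 12.7% between replicates. The exact 95% interval of the ratio of summed reads (505 and 826) was 1.34 to 1.68, which covers counting error only.

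**Figure D3:**
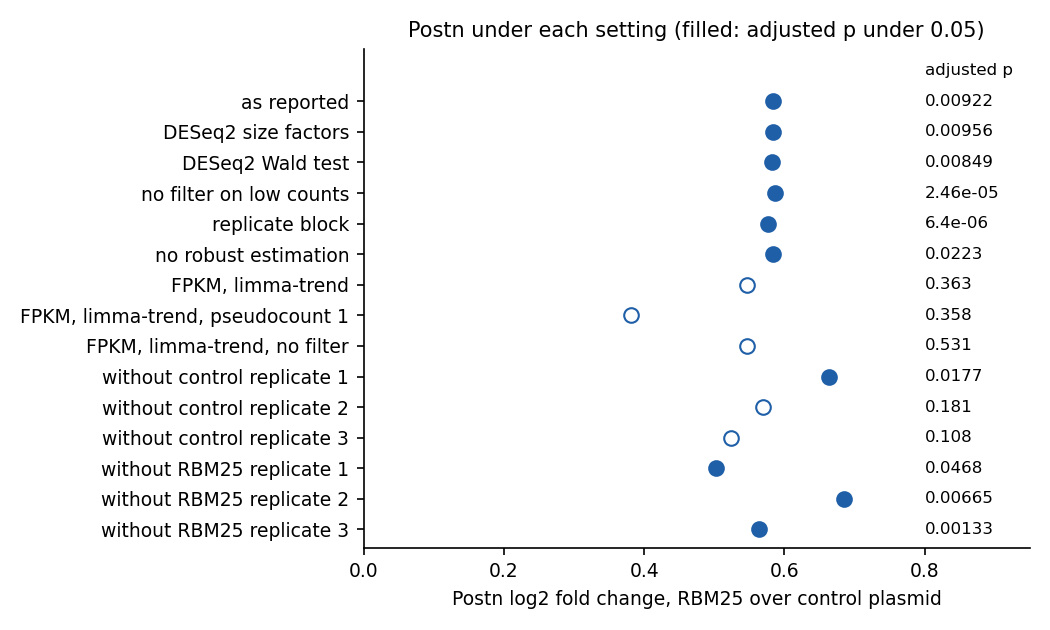
Log2 fold change of Postn, RBM25 over control plasmid, in the reported fit and under each other setting, with adjusted p at the right; filled points passed 0.05. All values are positive, from 0.38 on the log2(FPKM + 1) scale to 0.69 without RBM25 replicate 2, and the points that did not pass are the 3 tests on FPKM and the fits without control replicate 2 or 3.

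Its relative Tgfbi, named for its induction by TGF-beta, was not called. Tgfbi was at 299, 312 and 320 CPM in control replicates 1, 2 and 3 and at 296, 314 and 321 CPM in RBM25 replicates 1, 2 and 3. The RBM25 group held both the lowest and the highest of the 6 values. Tgfbi had a log2 fold change of -0.00034 ± 0.035 (SE; by edgeR, adjusted p = 0.998). The 95% interval of the fold was 0.951 to 1.05. The log2 ratio of Postn to Tgfbi reads within a library was -5.49, -5.74 and -5.87 in the controls and -4.90, -5.35 and -5.12 with the RBM25 plasmid. All RBM25 libraries had more Postn per Tgfbi read than any control library. The means differed by 0.57 on the log2 scale, with an exact two-sided permutation p of 0.1, the smallest that 3 libraries against 3 allow.

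Of the tenascin and thrombospondin members, Thbs1 and Tnc were tested and not called, and Thbs2 could not be tested. Thbs1, whose product activates latent TGF-beta and binds CD47, was at 1660, 1489 and 1521 CPM in control replicates 1, 2 and 3. The values in RBM25 replicates 1, 2 and 3 were 1852, 1656 and 1607 CPM. The groups overlapped, since control replicate 1 lay above RBM25 replicates 2 and 3. The log2 fold change of Thbs1 was 0.13 ± 0.067 (SE; by edgeR, adjusted p = 0.556), with an interval of the fold from 0.976 to 1.23. With no filter on low counts the same difference passed (log2 fold change 0.13, edgeR adjusted p = 0.0238). It also passed with a term for replicate number in the fit (0.13, edgeR adjusted p = 6.93e-07). The labels do not say whether same-numbered libraries belong together. Thbs1 passed in these 2 of 14 alternatives only, and did not pass by DESeq2 (Wald test, adjusted p = 0.832). Over all genes the fit with no filter called 205 and the fit with the replicate term 436, where the reported fit called 52. With 42277 to 61092 reads a library the coefficient of variation from read sampling was 0.477% in the controls and 0.435% in the RBM25 group, against 5.83% and 7.58% between replicates.

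Thbs2, which encodes the closest relative of thrombospondin 1, was hardly detected. It had 0, 3 and 3 reads in the controls and 1, 3 and 3 reads with the RBM25 plasmid. The 0 reads of control replicate 1 allow a level of up to 0.117 CPM. It was too low to be tested, and the ratio of summed reads, 1.07, had an exact counting interval of 0.309 to 3.86. The log2 ratio of Thbs1 to Thbs2 reads was 14.6 ± 1.57 in the controls and 14.3 ± 0.904 with the RBM25 plasmid (SD, n = 3; exact permutation p = 0.9), a comparison that rests on the few Thbs2 reads.

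Tnc, the tenascin of wounds and developing tendon, had 9, 9 and 21 reads in the controls and 15, 13 and 18 reads with the RBM25 plasmid. Control replicate 3 held the highest level and control replicate 2 the lowest, so the RBM25 libraries lay within the control range. Tnc had a log2 fold change of 0.12 ± 0.38 (SE; by edgeR, adjusted p = 0.938). The interval of the fold ran from 0.637 to 1.86. A change of the size seen for Postn would not have been detectable in Tnc at this depth.

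The collagen- and integrin-binding proteins SPARC and osteopontin were abundant and were not called. Sparc was at 2842, 2970 and 2988 CPM in control replicates 1, 2 and 3 and at 2763, 2872 and 2981 CPM in RBM25 replicates 1, 2 and 3. The groups overlapped, with a log2 fold change of -0.031 ± 0.029 (SE; by edgeR, adjusted p = 0.744), with an interval of the fold from 0.940 to 1.02. Spp1 was at 596, 577 and 580 CPM in the controls and at 596, 593 and 591 CPM with the RBM25 plasmid. Control replicate 1 fell within the RBM25 range. The spread between RBM25 replicates was 0.468% of their mean, below the 0.739% that read sampling alone would give. The log2 fold change of Spp1 was 0.023 ± 0.029 (SE; by edgeR, adjusted p = 0.811), with an interval of the fold from 0.976 to 1.06.

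The fibre-forming members were not called either. Fn1 was at 1734, 1772 and 1808 CPM in control replicates 1, 2 and 3 and at 1680, 1698 and 1814 CPM in RBM25 replicates 1, 2 and 3. RBM25 replicate 3 was the highest of the 6 libraries and RBM25 replicate 1 the lowest. The log2 fold change of Fn1 was -0.034 ± 0.030 (SE; by edgeR, adjusted p = 0.727). Fbn1 was at 108, 111 and 115 CPM in the controls and at 111, 114 and 110 CPM with the RBM25 plasmid, all 3 of the latter within the control range. Its log2 fold change was -0.00029 ± 0.035 (SE; by edgeR, adjusted p = 0.999). The intervals of the fold were 0.937 to 1.02 for Fn1 and 0.951 to 1.05 for Fbn1.

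**Figure D4:**
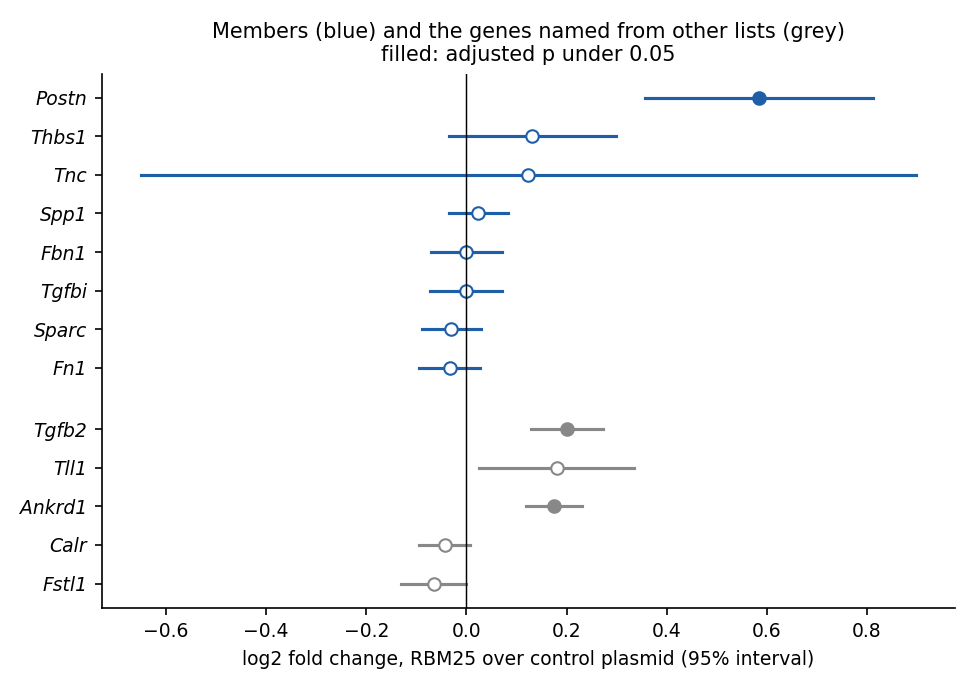
Log2 fold change, RBM25 over control plasmid, with its 95% interval for the 8 tested members (blue) and for the genes named from 4 further lists (grey); filled points passed an adjusted p of 0.05. The Postn interval (0.36 to 0.81) lies to the right of 0, that of Tnc (-0.65 to 0.90) is the widest, and the other 6 members lie between -0.034 and 0.13.

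RBM25 replicate 1 held an extreme place for several members at once. It was the highest of the 6 libraries for Postn, Thbs1 and Spp1 and the lowest for Sparc, Fn1 and Tgfbi. Among the controls, control replicate 1 held the same places for these genes, highest for Postn, Thbs1 and Spp1 and lowest for Sparc, Fn1 and Tgfbi. RBM25 replicate 3, the library that stood apart over all genes, was the highest for Fn1 and Tgfbi. Without RBM25 replicate 1 the log2 fold change of Postn was 0.50 and the call was kept (edgeR adjusted p = 0.0468).

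Related genes were counted in 4 further lists. Of 26 other matricellular genes 13 could be tested and none was called by edgeR or by DESeq2, where edgeR called 0.404% of all tested genes. In edgeR 1 was at an unadjusted p under 0.05, where 11.2% of all tested genes were. Of the 13, 7 were positive, with a median log2 fold change of 0.013. Fstl1, a secreted relative of SPARC and follistatin, had the smallest p, at 499 ± 17.1 and 477 ± 9.83 CPM (SD, n = 3; log2 fold change -0.066 ± 0.031, SE, adjusted p = 0.434). Tnr, tenascin R of the nervous system, named here after its values were seen, had 5, 6 and 9 reads in the controls and 15, 12 and 12 with the RBM25 plasmid. Its groups did not overlap, but it did not pass (log2 fold change 0.83 ± 0.42, SE, edgeR adjusted p = 0.472).

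Of 28 genes of the fibronectin and fibrillin matrix and its assembly, 20 were tested and none was called by edgeR or by DESeq2. Over all tested genes edgeR called 0.404%. In the list 1 gene was at an unadjusted edgeR p under 0.05, where 11.2% of all tested genes were. Of these 20, 4 had a positive value, where 48.8% of all tested genes did, with a median of -0.017 on the log2 scale. Tll1, a tolloid-like protease that processes matrix precursors, had the smallest p. It was at 13.0, 13.1 and 12.5 CPM in control replicates 1, 2 and 3 and at 13.6, 15.3 and 14.95 CPM in RBM25 replicates 1, 2 and 3. Its groups did not overlap, and its log2 fold change was 0.18 ± 0.075 (SE; by edgeR, adjusted p = 0.348).

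Among 26 receptors of these proteins 19 were tested and none was called by edgeR or by DESeq2, where edgeR called 0.404% of all tested genes. None was at an unadjusted p under 0.05 in edgeR, where 11.2% of all tested genes were, and the median was -0.0096. Calr, calreticulin, a partner of thrombospondin 1 at the cell surface, had the smallest p (2457 ± 11.7 and 2384 ± 23.6 CPM, SD, n = 3; log2 fold change -0.043 ± 0.025, SE, adjusted p = 0.545). The integrin chains that bind periostin and osteopontin, and the receptors Cd44 and Cd47, were named for that role after values were seen. Itgav was at 128 ± 2.81 and 131 ± 5.18 CPM, Itgb5 at 589 ± 5.08 and 609 ± 39.7 CPM, and Itgb1 at 1592 ± 36.3 and 1641 ± 7.30 CPM (SD, n = 3; edgeR adjusted p = 0.738, 0.662 and 0.574). Cd44, the osteopontin receptor, was at 284 ± 7.61 and 290 ± 9.03 CPM, and Cd47, the thrombospondin receptor, at 88.9 ± 2.06 and 90.7 ± 1.89 CPM (edgeR adjusted p = 0.758 and 0.831). The beta 3 chain gene Itgb3 had 2 reads in all, both in RBM25 replicate 3.

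The list of 23 tested regulators and markers of matrix activation, which act through TGF-beta, YAP or SRF, was chosen with earlier results known. It held 2 genes that rose and none that fell, beside the 0.404% of all tested genes given above, a count that carries no test. In edgeR, 3 were at an unadjusted p under 0.05, where 11.2% of all tested genes were. The median was 0.030, and 16 were positive, where 48.8% of all tested genes were. Tgfb2, a TGF-beta ligand, rose from 152 ± 6.72 to 175 ± 3.86 CPM (SD, n = 3; log2 fold change 0.20 ± 0.035, SE, edgeR adjusted p = 0.0045). Ankrd1, a stress-responsive muscle gene and known YAP target, rose from 1150 ± 29.0 to 1298 ± 13.2 CPM (SD, n = 3; log2 fold change 0.17 ± 0.028, SE, adjusted p = 0.00144). Neither call was kept without control replicate 2 (log2 fold changes 0.19 and 0.16, adjusted p = 0.159 and 0.0842), and that of Tgfb2 was also lost without control replicate 3 (0.18, adjusted p = 0.0844). The other TGF-beta ligands, named after their values were seen, were Tgfb1 (71.0 ± 3.17 and 72.5 ± 1.74 CPM) and Tgfb3 (620 ± 23.4 and 639 ± 28.2 CPM), and neither passed (edgeR adjusted p = 0.827 and 0.665). Srf and Yap1, also named after their values were seen, had negative log2 fold changes (-0.083 ± 0.039 and -0.056 ± 0.033, SE). Neither of these passed (edgeR adjusted p = 0.412 and 0.557).

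**Figure D5:**
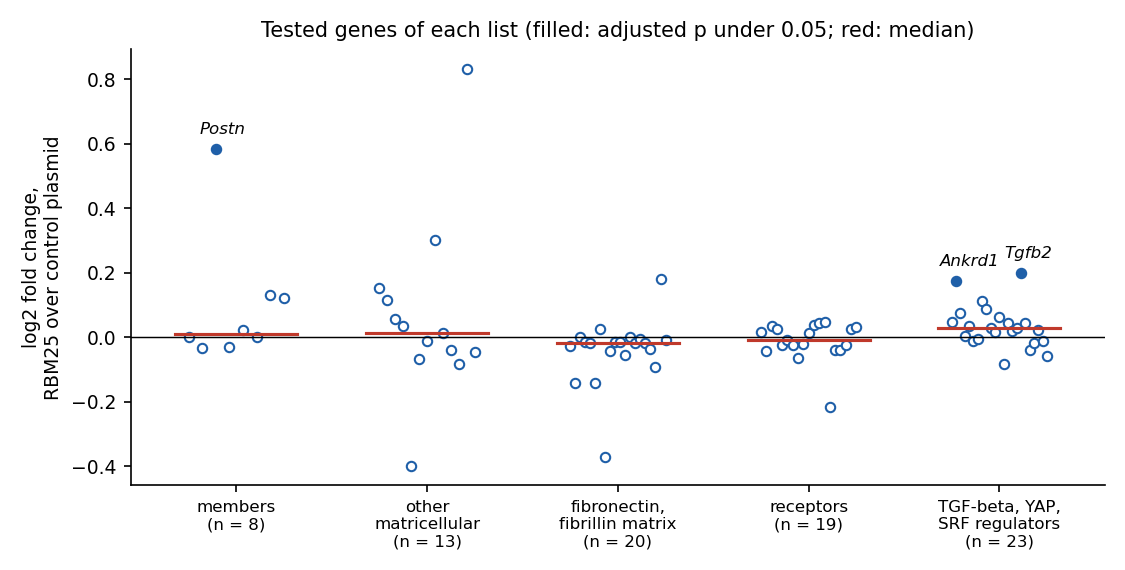
Log2 fold changes, RBM25 over control plasmid, of the tested genes of each list, in alphabetical order within a list; filled points passed an adjusted p of 0.05 and red lines are medians. Filled points are Postn, Ankrd1 and Tgfb2, and the medians lie between -0.017 and 0.030.

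The genes most like Postn in level across the 6 libraries were sought in the 10832 genes whose mean log2 CPM reached 1. By Pearson correlation of log2 CPM they were Fpgt, an enzyme of fucose metabolism (r = 0.992), Yaf2, a transcriptional cofactor (0.991), Mob1a, a Hippo pathway scaffold (0.990), Nexn, the actin-binding protein nexilin of the Z-disc (0.989), and Rsrc2, an arginine- and serine-rich protein (0.989). These values describe genes picked for their likeness over 6 libraries that fall into 2 groups, and carry no test. Nexn was at 82.0, 75.4 and 74.0 CPM in control replicates 1, 2 and 3 and at 95.7, 89.1 and 94.3 CPM in RBM25 replicates 1, 2 and 3. It was the 1 gene of the 5 that was called (log2 fold change 0.27 ± 0.041, SE, edgeR adjusted p = 9.95e-04). Over all tested genes 0.404% were called, but picking by likeness to Postn favours genes whose groups lie apart. The count of calls is therefore no separate result. Fpgt was at 14.5 ± 0.335 and 16.1 ± 0.756 CPM (SD, n = 3) and did not pass (log2 fold change 0.16 ± 0.071, SE, adjusted p = 0.403).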

How the data were processed

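RNA was measured in 6 libraries of H9C2 cells, 3 per plasmid, grouped by their titles. Per the labels' protocols, DNase-treated total RNA gave poly(A)-selected, strand-marked libraries that were read in pairs. The submitters' processing notes name HISAT2, DESeq2 and the build mRatBN7.2. The counter, the annotation and any use of strand were not given in the sources used here, so overlapping genes are uncertain. The counts that the authors deposited are raw whole numbers for each gene. The FPKM were computed by the authors and carry 2 decimals; their gene lengths are not stated.

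Counts of all genes were tested with edgeR 4.0.16 (R 4.3.3): filterByExpr with a minimum count of 10, TMM scaling (factors 0.996 to 1.01), and a robust quasi-likelihood F-test with group as its only term and Benjamini-Hochberg adjustment over all 12882 tested genes. A gene was called at an adjusted p under 0.05. SE is the size of the log2 fold change divided by the square root of F. CPM are scaled by the TMM factors. The script was tested on simulated data. Ratios of 2 genes within a library used 0.5 added reads. Alternatives were DESeq2 1.42.0, its size factors, no filter, no robust estimation, a replicate block, limma 3.58.1 (limma-trend) on FPKM, and each library left out in turn; on FPKM, genes needed 0.1 FPKM in 3 libraries. Intervals are 95%, and 0 reads were read as at most 3.

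The members, lists and alternatives were chosen with earlier results of these data known. The text names all 9 members, then up to 3 called genes of each list (or the 1 with the smallest p), and the 5 genes most correlated with Postn; others are marked. List genes without an exact symbol match were not analysed here, and 1 list gene is not reported here. No sequences are printed.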

Additional observations from a re-analysis of the deposited data

How the results depend on the processing

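Calls were limited by single libraries and by the test. The number of changed genes was 52, and it was 205 with no filter, 436 with a replicate block, and 7, 5 and 5 by limma-trend on FPKM (with 0.1 added, with 1 added, and with no filter); leaving out 1 library gave 5 (without control replicate 2) to 352 (without RBM25 replicate 3). The number of changed members was 2 with no filter and with the replicate block (Postn and Thbs1), 0 in all 3 tests on FPKM, and 0 to 1 with a library left out. The log2 fold change of Postn was 0.55, 0.38 and 0.55 in those FPKM tests (adjusted p = 0.363, 0.358 and 0.531) and 0.50 to 0.69 with a library left out; DESeq2, its size factors and the fit without robust estimation kept the call. Thbs1 was called at 0.13 with no filter and at 0.13 with the replicate block (adjusted p = 0.0238 and 6.93e-07), and lay at 0.071 to 0.18 with a library left out.

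Over all tested genes, deviations of same-numbered libraries correlated at 0.10, -0.084 and 0.010 for numbers 1, 2 and 3. Only the libraries numbered 1 correlated best with their own number. For Postn, Thbs1, Spp1, Sparc, Fn1 and Tgfbi, the libraries numbered 1 held the same extreme place in both groups. The labels do not say whether same-numbered libraries belong together, so the replicate block was kept as an alternative only. Under it Postn was at 0.58 (edgeR adjusted p = 6.40e-06). The other matricellular list had 1 call with no filter and 2 with the block, the fibronectin and fibrillin list 1 and 1. The regulator list had 0 calls in the 3 FPKM tests and 0 to 3 with a library left out, the receptor list 0 to 1, and the other 2 lists 0 in each of those 6 fits.

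Values near 0 changed sign without being called. Tgfbi was at 0.0022 with no filter, 0.00024 in each FPKM test, and -0.025 to 0.035 with a library left out. Fbn1 was at 0.0024 with no filter, 5.04e-04 with the replicate block, 0.0014, 0.0012 and 0.0014 in the FPKM tests, and -0.021 to 0.027 with a library left out. Tnc was at -0.085 to 0.58, and the Thbs1 to Thbs2 log2 ratio differed by -0.79 to 0.63, with a library left out; that ratio could not be taken on FPKM, where Thbs2 is listed at 0 in 2 libraries. The Postn to Tgfbi difference stayed between 0.46 and 0.69. Sparc, Spp1 and Fn1 kept their sign and were called under none of the 14 alternatives. The cause of these differences was not tested. Depth limits Tnc and Thbs2 most.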

Other observations

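Of the other matricellular genes, the tested genes of the CCN family and thrombospondin 3 are given here for their kinship to the members, and were named after their values were seen. Ccn1 was at 355, 325 and 306 CPM in control replicates 1, 2 and 3 and at 401, 356 and 339 CPM in RBM25 replicates 1, 2 and 3. Ccn2 was at 1386, 1244 and 1223 CPM and at 1497, 1340 and 1338 CPM in the same order. In Ccn1 and Ccn2, as in Postn, Thbs1 and Spp1, RBM25 replicate 1 was the highest library and control replicate 1 the highest control. Ccn4 and Thbs3 did not share these places. Ccn4 was at 188, 181 and 187 CPM in the controls and at 192, 185 and 201 CPM with the RBM25 plasmid, with RBM25 replicate 3 the highest. Thbs3 was at 27.1, 27.8 and 27.4 CPM in the controls and at 24.5, 27.8 and 27.8 CPM with the RBM25 plasmid. RBM25 replicate 1 was its lowest library and control replicate 1 its lowest control, as for Sparc, Fn1 and Tgfbi. The groups overlapped in all 4 genes, and none passed the edgeR test, with log2 fold changes of 0.15 ± 0.082, 0.12 ± 0.066, 0.057 ± 0.035 and -0.040 ± 0.060 for Ccn1, Ccn2, Ccn4 and Thbs3 (SE; adjusted p = 0.571, 0.59, 0.567 and 0.855). The fourth CCN gene tested, Ccn5, had a log2 fold change of 0.036 ± 0.075 (SE; adjusted p = 0.904).

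Emilin1, an elastic fibre protein also named after its values were seen, was at 743, 824 and 838 CPM in control replicates 1, 2 and 3 and at 666, 729 and 784 CPM in RBM25 replicates 1, 2 and 3 (log2 fold change -0.14 ± 0.075, SE, edgeR adjusted p = 0.565). Like Sparc, Fn1 and Tgfbi, it was lowest in RBM25 replicate 1, and control replicate 1 was the lowest control.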
